A study of Populus cathayana with 4 samples.

Results

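Leaves of female and male Populus cathayana grown under ambient solar UV-B were compared by 3′ tag counting, in which each transcript is counted through a 17 bp tag beside its last NlaIII site. Populus cathayana is a poplar in which male and female flowers grow on separate trees. The comparison sets the female library under ambient UV-B against the male library under ambient UV-B, which are 2 of the 4 libraries of the study. The other libraries are females and males under reduced solar UV-B. They are used here only as a reference for the sex ratio.

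In each group 9 potted plants raised from cuttings had stood for 100 days under their UV-B level in a greenhouse in Sichuan. RNA from the fourth fully expanded leaves was pooled in equal parts and made into 1 library. How many source trees of each sex the cuttings came from is not stated in the labels. The 4 libraries ran on separate flow cell lanes, so lane and group cannot be told apart. With 1 pooled library per group no value has a replicate error, and each difference below is a difference between libraries.

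UV-B is the most energetic part of sunlight that reaches plants. Leaves answer it mainly by building flavonoids and other phenylpropanoids in the epidermis, which absorb it, and by enzymes that remove reactive oxygen. The same phenylpropanoid pathway also feeds lignin and defence compounds. Poplar leaves carry a well-studied set of inducible defence proteins as well. Kunitz-type inhibitors block the digestive proteases of insects, polyphenol oxidases turn phenolics into reactive quinones, and chitinases, glucanases and thaumatin-like proteins act on fungal walls and membranes.

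The 19100 rows of the count table held 624926 tags of the female library and 722533 of the male library, which is 14.4% and 17.2% of each library's total. The libraries under reduced UV-B had 15.0% (females) and 14.9% (males) of theirs in these rows. The male library under ambient UV-B had the largest listed share, and its part in the number of rows lower in females was not tested. A row stands for a transcript model with a Populus trichocarpa identifier. Tests covered the 10741 rows with 10 or more counts summed over the 4 libraries. A protein is named in the description of 1676 of them. Values are raw tag counts, or CPM, the counts scaled to a common library total. Calls needed an adjusted p below 0.001 in an exact binomial test of the pair of counts, with Benjamini-Hochberg adjustment over all tested rows, and at least a 2-fold difference in CPM. Ratios are on the log2 scale, females over males, with 95% intervals that cover counting error only. No count of 1 occurs in the table, so a 0 can stand for 0 or 1 tag. A fold against a library at 0 is a bound computed against 3 counts.

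By this rule 393 rows were higher in females than in males (3.66% of those tested) and 826 were lower (7.69%). Most calls ended once variation between pools was assumed. A coefficient of variation of 0.3 left 46 higher and 77 lower rows, and 27 of the 99 called genes among those named by rule. A quasi-likelihood fit of sex over the 4 libraries, with UV-B as a block, called 0 higher and 0 lower, with 1534 rows at an unadjusted p under 0.05. That fit tests the sex difference over both UV-B levels, not the ambient pair. Its spread comes from how the sex difference varies between UV-B levels, since no pool was replicated. The split depended on the scaling. TMM factors, which centre the bulk of the rows, raised every female over male ratio by 0.19 and the median of all rows to 0.08, against -0.11 with library totals. Calls were then 551 higher (5.13%) and 624 lower (5.81%), so that 53.1% of the calls were lower in place of 67.8%. All 393 higher and 624 of the 826 lower calls held under both scalings. Ratios below use library totals, and rows whose call ended with TMM are named as such.

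The differences were large in part of the rows. Of the calls, 92 higher and 177 lower rows differed more than 8-fold, and 184 and 356 differed 2-fold to 4-fold. In 95 higher and 130 lower rows the other sex was at 0. Rows called higher held 9.61% of the listed counts in the female library and 2.61% in the male library. Rows called lower held 7.94% in the female library and 25.7% in the male library. The share called rose with depth. It was 0.289% higher and 0.722% lower among rows with 10 to 24 counts, and 7.63% and 18.6% among rows with 1000 or more. Among described rows, from which most lists below are drawn, 4.71% were higher and 9.37% lower. The shares of all rows set beside a list below are therefore not matched to its depth or to described rows.

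**Figure D1:**
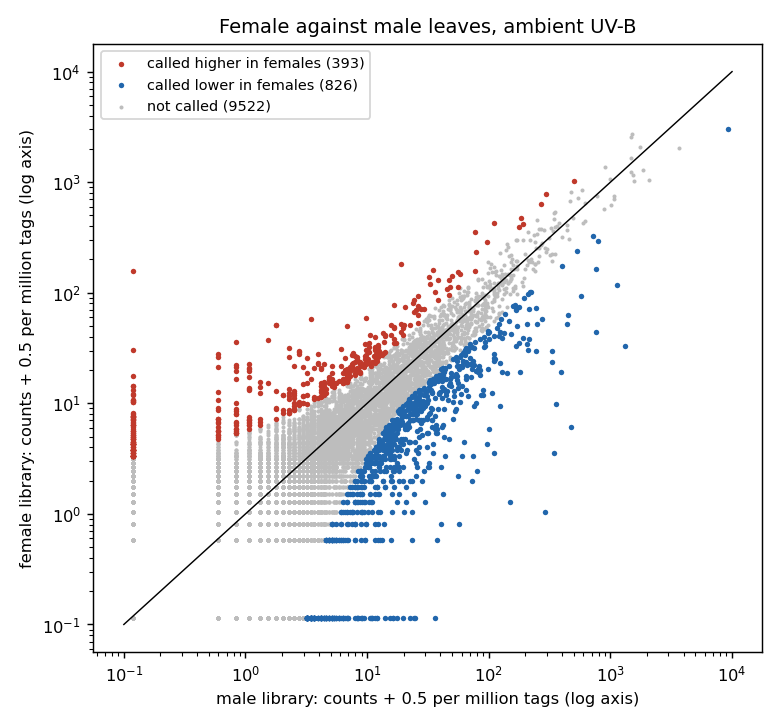
Each point is 1 of the 10741 tested rows, with CPM in the female library on the vertical axis and in the male library on the horizontal axis, both logarithmic and with 0.5 added to each count. Red points are the 393 rows called higher in females and blue points the 826 called lower. The line marks equal values, and rows at 0 lie along the lower and left edges.

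Leaf markers were abundant in both libraries. Antenna and photosystem genes, the markers of leaf mesophyll, summed to 7361 CPM in females and 9054 CPM in males. Markers of dividing cells (cyclins, histones, tubulins and kinesins) summed to 595 CPM in females and 628 CPM in males. Those of xylem (laccases, fasciclin-like proteins, caffeoyl-CoA O-methyltransferase) summed to 14.6 CPM in females and 46.6 CPM in males. Of the 14 tested xylem markers 0 were called higher and 3 lower in females (21.4%, beside 7.69% of all rows), or 2 lower with TMM. Of these markers 4 were at 0 in females and 3 in males. The only tested phloem marker, sucrose proton symporter Potri.002G106900.1, had 72 counts in females and 39 in males and was not called. Of 8 tested MADS-box and flowering genes 0 were called in either direction. In pooled leaves, fewer cells of a type and less RNA per cell cannot be told apart.

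In the lists below, inducible defence proteins were mostly lower in females than in males, with all but 1 of their calls in that direction. The broader ontology term defense response had 4 of 118 rows higher and 12 lower (3.39% and 10.2%), or 6 and 7 with TMM. Its shares with library totals were near the 4.71% and 9.37% of described rows. Of 10 tested protease inhibitors, all of Kunitz type, 5 were lower in females and 1 higher. All 3 polyphenol oxidases and 5 of 8 pathogenesis proteins were lower and 0 were higher. The lower shares of these lists were 50%, 100% and 62.5%, beside 7.69% of all rows and 9.37% of described rows. Together these lists held 65.4, 20.8 and 114 CPM in females, against 785, 121 and 771 CPM in males. Their median log2 ratios were -1.18, -3.61 and -2.25, beside -0.11 for all tested rows. With counts of 0 set to 3 these medians were -1.20, -3.81 and -2.10. The lists had 15, 3 and 10 rows in the table, and those under 10 counts were not tested.

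The most abundant inhibitor (Kunitz-type, against trypsin, Potri.019G124400.2) had 26 counts in females and 2014 in males under ambient UV-B (6.01 CPM in females and 479 in males). Under reduced UV-B it had 76 counts in females and 372 in males. The male library under ambient UV-B stood far above the other 3, and females were 79.6-fold below males there (log2 ratio -6.32, interval -6.93 to -5.76). Its neighbour by identifier on chromosome 19, inhibitor KPI-C1 Potri.019G124600.1, had 129 counts in females and 1033 in males (-3.04, interval -3.32 to -2.78). Under reduced UV-B the same gene had 129 counts in females and 476 in males, so that its female level was the same and its male level lower. Another inhibitor, Potri.001G309900.1, had 53 counts in females and 163 in males (-1.66), against 2 in females and 207 in males under reduced UV-B. Here the female library under reduced UV-B was the low one.

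A pair of smaller inhibitor rows was lower in females too, Potri.004G067800.1 with 2 counts in females and 22 in males and Potri.004G000400.1 with 6 counts in females and 29 in males, the second not called with TMM. KPI-A2.2 (Potri.T029100.1) went the other way, with 35 counts in females and 8 in males, and was at 0 in both libraries under reduced UV-B. The 4 inhibitors not called had 0 to 20 counts in females and 0 to 18 in males. Kunitz genes form tandem families with similar sequences, and how tags shared by such copies were assigned is not given in the sources used here.

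Polyphenol oxidase Potri.001G388900.1, the most abundant of the 3, had 82 counts in females and 340 in males (-2.09, interval -2.46 to -1.74). The gene Potri.011G108300.1 had 5 counts in females and 126 in males (-4.70, interval -6.34 to -3.43), and Potri.011G047300.1 had 3 in females and 41 in males. The male library was the higher one for each. At an assumed coefficient of variation of 0.3 Potri.011G108300.1 kept its call and Potri.001G388900.1 did not.

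Among pathogenesis proteins, the pop3 peptide Potri.010G150500.1, of a stress-related protein family of poplar, had 225 counts in females and 1844 in males (-3.07, interval -3.28 to -2.87). A pathogenesis-related thaumatin, Potri.001G102400.1, had 147 counts in females and 869 in males (-2.60, interval -2.87 to -2.35). The beta-1,3 glucanases Potri.016G057400.1 and Potri.016G057600.1, which cut a glucan of fungal walls, had 88 and 12 counts in females and 416 and 44 in males. Chitinase 3 (Potri.006G188400.1) had 11 counts in females and 52 in males. These 5 genes were lower in females under reduced UV-B as well, at ratios of -3.00 for thaumatin and -1.84 for pop3. At an assumed coefficient of variation of 0.3 pop3 kept its ambient call, and thaumatin and glucanase Potri.016G057400.1 did not. Allene oxide synthase Potri.002G130700.1, the enzyme that commits fatty acid peroxides to jasmonate, the hormone of wounding, had 21 counts in females and 180 in males (-3.14, interval -3.87 to -2.48). It was the only 1 of 4 tested jasmonate and lipoxygenase genes to be called.

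**Figure D2:**
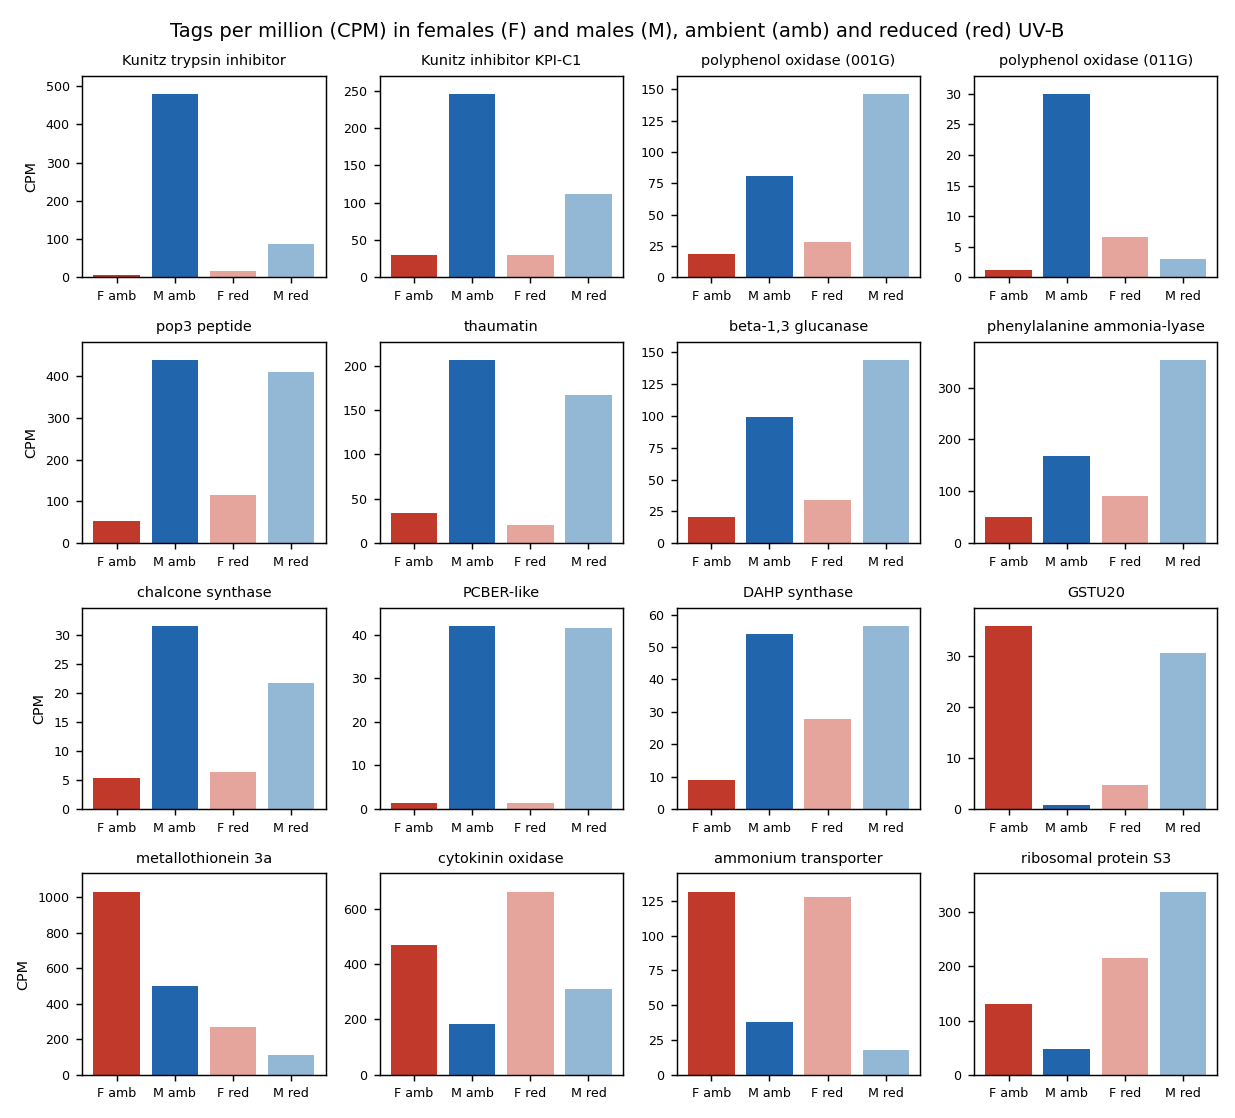
Bars give CPM (linear axes from 0) of 16 named genes in females and males under ambient UV-B, then females and males under reduced UV-B, with 1 pooled library per bar and no error. The defence and phenylpropanoid genes of the upper 3 rows are lower in females than in males under ambient UV-B, and polyphenol oxidase Potri.011G108300.1 (marked 011G) is the exception in the reduced UV-B pair. GSTU20, metallothionein 3a, cytokinin oxidase, the ammonium transporter and ribosomal protein S3 are higher in females under ambient UV-B.

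Enzymes on the route to phenylpropanoids were lower in females at the amino acid supply, at the entry step and at the first flavonoid step. The first enzyme of the shikimate pathway, 2-dehydro-3-deoxyphosphoheptonate aldolase (DAHP synthase, Potri.002G099200.1), had 38 counts in females and 227 in males (-2.62, interval -3.15 to -2.12). Both tested arogenate/prephenate dehydratases, which make phenylalanine, were lower, with 13 and 19 counts in females and 66 and 93 in males (Potri.009G148800.1 and Potri.004G188100.1). The other 6 tested genes of aromatic amino acid synthesis were not called, so that 3 of 9 were lower (33.3%, beside 7.69% of all rows). This list was added after values were seen. Tryptophan synthesis gene Potri.014G169100.2 had 191 counts in females and 187 in males.

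Phenylalanine ammonia-lyase, which draws phenylalanine into the pathway, was lower in both of its rows. The row Potri.006G126800.1 had 215 counts in females and 711 in males (-1.77, interval -1.99 to -1.54), and Potri.016G091100.1 had 174 in females and 515 in males (-1.61). Chalcone synthase, the first enzyme of flavonoid synthesis, was lower in all 3 tested rows. They had 23, 13 and 39 counts in females against 133, 58 and 104 in males (Potri.003G176800.1, Potri.001G051500.1 and Potri.001G051600.1). A 4-coumarate:CoA ligase (Potri.003G188500.1) was at 0 in females and had 15 counts in males. These were the 6 calls among 19 tested entry and flavonoid enzymes (31.6%), and 0 were higher. At an assumed coefficient of variation of 0.3 no named row of DAHP synthase, phenylalanine ammonia-lyase or chalcone synthase kept its call. Later flavonoid steps were thinly counted. The dihydroflavonol reductase, flavonoid hydroxylases, flavonol synthase and anthocyanidin synthase each had at most 15 counts in either library and were not called. The list's median was -0.04, or 0.15 with TMM, -0.42 with counts of 0 set to 3 and -1.60 over the 7 members with 50 or more counts.

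Lignin and lignan genes had 5 of 26 members lower (19.2%, beside 7.69% of all rows, or 4 with TMM) and 0 higher. Their median was -0.73, or -0.68 with counts of 0 set to 3. Phenylcoumaran benzylic ether reductase-like Potri.007G123700.1, of an enzyme family that reduces lignan dimers, had 6 counts in females and 177 in males (-4.92, interval -6.39 to -3.77). Under reduced UV-B the same row had 6 counts in females and 178 in males, so that the sex ratio was nearly identical. A second such reductase (Potri.009G118300.1) had 6 counts in females and 38 in males, and an isoflavone reductase-like row (Potri.004G156700.1) was at 0 in females with 22 in males. The remaining calls were laccase 3 (Potri.010G193100.1, 10 counts in females and 53 in males) and a laccase not called with TMM (Potri.008G064000.1, 2 in females and 19 in males). Both laccases are also xylem markers, whose summed level was lower in females as given above, and their part in this result was not tested. The most abundant member, coniferylaldehyde 5-hydroxylase Potri.007G016400.1, a step towards syringyl lignin, had 152 counts in females and 245 in males and was not called.

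Glutathione transferases, which attach glutathione to reactive compounds, were called in both directions. Of 16 tested members 3 were higher and 2 lower in females (18.8% and 12.5%, beside 3.66% and 7.69% of all rows). The list's summed levels were close, at 651 CPM in females and 693 CPM in males. GSTU20 (Potri.008G175000.1), of the tau class, had 155 counts in females and 3 in males (5.65, interval 4.08 to 7.94). Under reduced UV-B it had 21 counts in females and 131 in males, so that the higher sex was the other one. EF1Bgamma2 (Potri.004G226300.1), whose class is a subunit of a translation elongation factor, had 76 counts in females and 0 in males, which is at least 24.6-fold higher. GSTF2 (Potri.002G015200.1), of the phi class, had 103 counts in females and 34 in males (1.56). GSTU30 (Potri.011G140800.1) went the other way, with 312 counts in females and 1034 in males (-1.77, interval -1.96 to -1.58), as did GSTU52 (Potri.010G070900.1) with 4 in females and 37 in males.

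The metal-binding protein metallothionein 3a (Potri.011G118900.1) had 4457 counts in females and 2104 in males (1031 CPM in females and 500.1 in males), just past the 2-fold line (1.04, interval 0.97 to 1.12). Under reduced UV-B it had 1173 counts in females and 486 in males. Both ambient libraries were above both reduced ones, and the female library was the higher one of each pair. The ambient call ended at an assumed coefficient of variation of 0.3.

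Among 34 thioredoxins, glutaredoxins and peroxiredoxins, proteins that pass electrons to oxidised thiols and peroxides, 3 were higher in females and 1 lower. These shares were 8.82% and 2.94%, beside 3.66% and 7.69% of all rows. Glutaredoxin Potri.008G214800.1 had 61 counts in females and 0 in males, at least 19.8-fold higher, and glutaredoxin Potri.014G134300.1 had 97 in females and 41 in males. A thioredoxin m row (Potri.009G100700.1) had 18 counts in females and 0 in males. The 2-cys peroxiredoxin Potri.016G072100.1, a chloroplast enzyme that destroys hydrogen peroxide, was the exception, with 78 counts in females and 357 in males (-2.23, interval -2.61 to -1.88). The most abundant member, thioredoxin m Potri.005G186800.1, had nearly equal counts of 2040 in females and 2079 in males. With TMM the list had 5 higher and 1 lower, and its median was 0.15 in place of -0.04 (-0.01 with counts of 0 set to 3).

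The calls among antenna and photosystem genes were mostly lower in females with library totals, and the most abundant antenna rows were not called. Of 29 antenna and photosystem rows 0 were higher in females and 4 lower, or 1 higher and 2 lower with TMM. The share lower with library totals was 13.8%, beside 7.69% of all rows and 9.37% of described rows. Of the 29 rows 9 also have a plastid-encoded gene as best hit, and 0 of those 9 were called. Lhca4 (Potri.015G062200.1), an antenna protein of photosystem I, had 16 counts in females and 106 in males (-2.77, interval -3.63 to -2.00). A row described as photosystem I apoprotein A1 (Potri.002G211800.1) had 51 counts in females and 114 in males. That row is not in the list of plastid-encoded best hits given next. The most abundant antenna rows differed less than 2-fold. Lhca3 (Potri.014G172400.1) had 9060 counts in females and 7362 in males, and an Lhcb row of photosystem II (Potri.005G239300.1) had 4565 in females and 8812 in males.

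In 41 tested rows the best database hit was a plastid-encoded gene, and 8 of them were higher in females and 1 lower (19.5% and 2.44%, beside 3.66% and 7.69% of all rows), or 9 and 0 with TMM. Ribosomal protein S3 (Potri.012G047500.1) had 562 counts in females and 197 in males (1.47, interval 1.24 to 1.71), against 948 in females and 1446 in males under reduced UV-B. The male library under ambient UV-B was the low one. ATP synthase CF1 alpha chain (Potri.005G154600.1) had 60 counts in females and 5 in males (3.55), and an RNA polymerase beta'' subunit row (Potri.013G142400.1) had 1250 in females and 405 in males. A Ycf1-like row (Potri.011G073900.1) had 97 counts in females and 18 in males. The large subunit of Rubisco (Potri.T005800.1), the carbon-fixing enzyme, whose row is not in that list, had 368 counts in females and 102 in males (1.81, interval 1.49 to 2.14). The photosystem I apoprotein A1 row given above, lower in females, is not in that list either. NADH dehydrogenase subunit 6 (Potri.004G195500.1) was the lower row, with 325 counts in females and 664 in males, and its call ended with TMM. No named row with a plastid-encoded hit kept its call at an assumed coefficient of variation of 0.3. The most abundant row of the list, ribosomal protein L2 (Potri.013G143300.1), had 5530 counts in females and 7790 in males and was not called, and the list as a sum was slightly lower in females, at 4097 CPM against 4414 CPM in males. The libraries were primed with oligo-dT, and plastid transcripts mostly lack long poly(A) tails. Whether such tags come from the plastid or from nuclear copies cannot be told from the table.

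**Figure D3:**
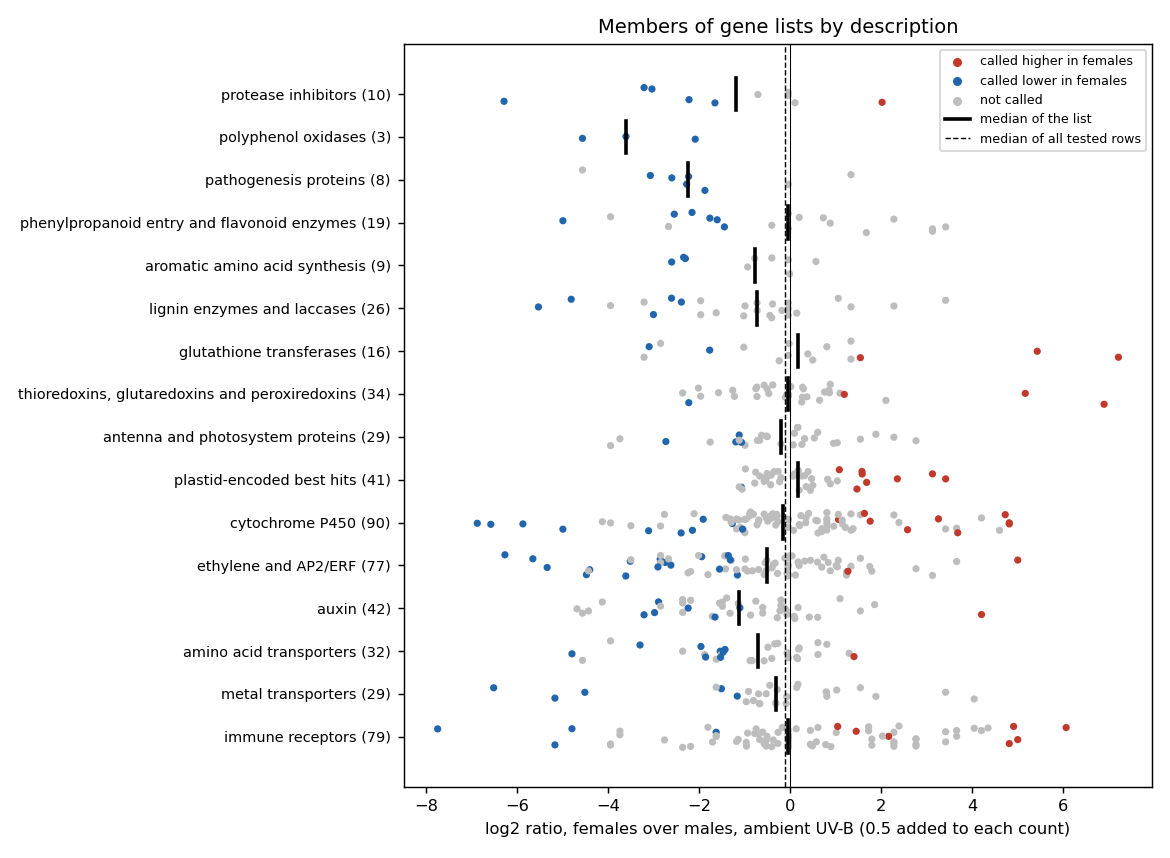
Each point is a tested member of a gene list, placed by its log2 ratio of females over males under ambient UV-B with 0.5 added to each count. Red and blue points were called higher and lower in females, black bars are list medians, the dashed line is the median of all tested rows at -0.11, and numbers after the names are the members tested. Protease inhibitors, polyphenol oxidases and pathogenesis proteins lie to the left, whereas immune receptors have calls on both sides. Rows with plastid-encoded hits have most of their calls to the right.

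Nutrient transporters were called in both directions, whereas the calls among metal transporters and water channels were all lower in females with library totals. The ammonium transporter Potri.008G173800.1 had 569 counts in females and 159 in males (1.80, interval 1.54 to 2.06), and Potri.009G045200.1 had 150 in females and 72 in males. Another, Potri.010G063500.1, was lower in females, with 88 counts in females and 238 in males (-1.48). A nitrate transporter (Potri.014G157400.1) had 67 counts in females and 5 in males (3.70, interval 2.41 to 5.37). The high affinity phosphate transporter Potri.002G005500.1 had 11 counts in females and 132 in males (-3.62, interval -4.66 to -2.74), whereas the most abundant phosphate transporter row, Potri.001G318500.1, had 333 in females and 403 in males and was not called. In all, 3 of 28 nutrient transporters were higher and 2 lower (10.7% and 7.14%, beside 3.66% and 7.69% of all rows).

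Metal transporters had 0 of 29 members higher in females and 5 lower (17.2%, beside 7.69% of all rows), or 4 lower with TMM, and 1 higher and 4 lower with the sum of the listed rows. The list was one of 6 added after values were seen. Of the others, F-box proteins had 3 of 63 members higher and 7 lower, GRAS factors 0 and 1 of 25, and calcium signalling kinases 1 and 2 of 36. Their lower shares were 11.1%, 4% and 5.56%. The ZIP transporter Potri.001G366100.1, of a family that takes up zinc and iron, had 18 counts in females and 410 in males (-4.55, interval -5.32 to -3.87). Under reduced UV-B it had 13 counts in females and 261 in males, with males again the higher sex. A copper transporter (Potri.009G038700.1) was at 0 in females and had 44 counts in males, at least 15.1-fold lower. Amino acid transporters had 1 of 32 members higher and 8 lower (25%), or 1 and 5 with TMM. The lower ones include 4 cationic amino acid transporters, among them Potri.003G154600.1 with 44 counts in females and 125 in males. Of 16 aquaporins, the water channels of plant membranes, 3 were lower (18.8%) and 0 higher. They were the plasma membrane types Potri.009G013900.1 (50 counts in females and 285 in males) and Potri.003G128600.1 (300 in females and 698 in males) and the tonoplast type Potri.004G216500.1 (0 in females and 34 in males).

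The ethylene and AP2/ERF list had 16 of 77 members lower in females and 2 higher. These shares were 20.8% and 2.60%, beside 7.69% and 3.66% of all rows. With TMM the list had 14 lower and 2 higher, beside 5.81% and 5.13% of all rows. AP2/ERF proteins are a large family of plant transcription factors, many of which answer ethylene, wounding or cold. The factor Potri.006G218200.1 had 2 counts in females and 98 in males (-5.65, interval -8.72 to -3.76), and Potri.011G061700.1 had 2 in females and 51 in males (-4.71). Among the more abundant members, Potri.010G129200.1 had 93 counts in females and 349 in males and Potri.011G115600.1 had 79 in females and 226 in males. The factor Potri.007G090600.1 was higher in females, with 100 counts in females and 40 in males. The most abundant member, ethylene-insensitive 3b (Potri.004G197400.1), a central activator of the ethylene response, was nearly equal at 703 in females and 716 in males.

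Rows described by the ethylene precursor 1-aminocyclopropane-1-carboxylate were also called. A pair of them belongs to the same locus and differed in opposite directions. The model Potri.001G099400.2 had 4 counts in females and 97 in males (-4.64, interval -6.54 to -3.24), while Potri.001G099400.1 had 16 counts in females and 0 in males. Both models kept this pattern under reduced UV-B, with 11 counts in females and 46 in males for Potri.001G099400.2 and 13 in females and 0 in males for Potri.001G099400.1. Of 99 loci with more than 1 tested row this was the only 1 with calls in both directions.

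Auxin genes had 1 of 42 members higher and 6 lower (14.3%, beside 7.69% of all rows), or 5 lower with TMM. Their median of -1.12 varied with the thinly counted members, and was -0.62 with counts of 0 set to 3 and -0.81 over the 22 members with 50 or more counts. SAUR genes, small proteins induced early by auxin, were found on both sides. SAUR Potri.001G306300.1 had 85 counts in females and 4 in males (4.37, interval 2.96 to 6.28), and SAUR Potri.005G096400.1 had 57 in females and 175 in males (-1.66). An auxin influx carrier (Potri.005G174000.1), which brings the hormone into cells, had 4 counts in females and 32 in males. Cytokinin oxidase Potri.002G030500.1, which degrades cytokinins, was higher in females at 2034 counts against 777 in males (1.35, interval 1.23 to 1.47). A type-A response regulator (Potri.001G027000.1), an early cytokinin target, was lower with 2 counts in females and 21 in males, and an isopentenyltransferase of cytokinin synthesis (Potri.008G202200.1) was lower until TMM was used, with 2 in females and 20 in males. Gibberellin 2-oxidase Potri.001G378400.1, which inactivates gibberellins, had 26 counts in females and 0 in males.

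Other transcription factor lists had few tested members. NAC factors had 1 of 28 higher and 2 lower (3.57% and 7.14%), close to the 3.66% and 7.69% of all rows. The higher one was Potri.010G166200.1 with 25 counts in females and 0 in males, and the calls of the lower ones ended with TMM. The homeobox-leucine zipper gene Potri.006G193700.1 had 25 counts in females and 89 in males (-1.87). The factor bHLH71 (Potri.003G093200.1) was at 0 in females with 20 counts in males. Of 9 WRKY and 4 MYB rows 0 were called in either direction. Their most abundant members had 24 counts in females and 30 in males (WRKY18, Potri.003G169100.1) and 16 counts in females and 17 in males (MYB, Potri.009G134000.1), so that only large differences could be called. None of 12 wax and fatty acid genes was called, or 1 higher with TMM.

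Cytochrome P450 monooxygenases, a large family that oxidises hormones, pigments and defence compounds, had 9 of 90 members higher and 10 lower. These shares were 10% and 11.1%, beside 3.66% and 7.69% of all rows. The lower members included the described gene with the lowest finite ratio, Potri.014G037900.1, with 5 counts in females and 628 in males (-7.01, interval -8.64 to -5.78). Under reduced UV-B that gene had 171 counts in females and 647 in males, so that the female library under ambient UV-B was the low one. On the other side, Potri.002G025800.1 had 95 counts in females and 3 in males (4.95, interval 3.35 to 7.25), and Potri.003G146800.1 had 255 in females and 41 in males. The most abundant P450 row, Potri.001G083900.1, had 828 counts in females and 414 in males and was called only with TMM.

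Immune receptors of the NBS-LRR family, which detect pathogen molecules inside cells, had 7 of 79 members higher in females and 4 lower, or 2 lower with TMM. These shares were 8.86% and 5.06%, beside 3.66% and 7.69% of all rows. Several were counted in 1 sex only. A cc-nbs-lrr gene (Potri.005G035700.1) was at 0 in females and had 104 counts in males, at least 35.6-fold lower, against 2 in females and 51 in males under reduced UV-B. Another (Potri.T105600.1) had 34 counts in females and 0 in males, against 23 in females and 0 in males under reduced UV-B. Males were at 0 in both of their libraries for Potri.019G112600.1 and Potri.015G043600.2 too, where females had 16 and 15 counts. The most abundant member (Potri.006G014400.1) had 232 counts in females and 109 in males (1.05). Among receptor kinases and lectins, a G-type lectin receptor kinase (Potri.002G086500.1) had 161 counts in females and 6 in males (4.71, interval 3.55 to 6.17), and a wall-associated kinase (Potri.010G121200.1) was at 0 in females with 17 counts in males.

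ABC transporters, membrane pumps for many compounds, had 4 of 48 members higher and 3 lower. These shares were 8.33% and 6.25%, beside 3.66% and 7.69% of all rows. The retinal flippase subfamily held a pair in opposite directions, Potri.015G063500.1 with 125 counts in females and 11 in males (3.47) and Potri.012G069800.1 with 60 in females and 172 in males (-1.56). Glycosyltransferases had 5 of 33 lower (15.2%, or 4 with TMM) and 0 higher. Among the lower ones was a family GT8 gene (Potri.008G192600.1) with 8 counts in females and 118 in males (-3.92, interval -5.17 to -2.90). In the cell wall list of 13 genes, cellulose synthase Potri.002G257900.1 had 5 counts in females and 88 in males (-4.18, interval -5.84 to -2.90). XTH-6 (Potri.006G071200.1), which cuts and rejoins xyloglucan, was higher in females with 49 counts in females and 17 in males (1.49). Pectinesterase Potri.014G149700.1, a very abundant row, had 8872 counts in females and 15347 in males and stayed under the 2-fold line (-0.83).

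Genes of protein turnover had 3 of 16 members higher and 0 lower (18.8% and 0%, beside 3.66% and 7.69% of all rows). The ubiquitin extension protein row Potri.001G025300.1 had 61 counts in females and 0 in males, whereas the most abundant ubiquitin row (Potri.014G115100.1) had 505 in females and 537 in males. A row described as ubiquitin ligase COP1 (Potri.012G140200.1), a regulator of light and UV-B signalling, had 18 counts in females and 0 in males, and 23 in females and 0 in males under reduced UV-B. A beta-fructofuranosidase (Potri.013G006600.2), which splits sucrose, had 35 counts in females and 0 in males. Markers of dividing cells had 5 of 56 higher (8.93%) and 3 lower (5.36%, or 2 with TMM). Beta tubulins fell on both sides, Potri.001G464400.1 with 94 counts in females and 25 in males and Potri.016G033200.1 with 30 in females and 143 in males. Of 15 transposon rows 1 was higher, or 3 with TMM, and 0 were lower. RNA-dependent RNA polymerases, which amplify silencing RNAs, had 1 row higher (Potri.006G253500.1, 38 counts in females and 7 in males) and a pair lower (Potri.008G135800.1 with 2 in females and 26 in males, Potri.018G028100.1 with 0 in females and 17 in males).

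Chromosome 19 carries the sex-determining region in several poplar species. Of 284 tested rows whose identifier places them there, 12 were higher in females (4.23%) and 26 lower (9.15%), beside 3.66% and 7.69% of all rows. Chromosome 17 had the largest share called of the numbered chromosomes, 16.9%, and also with TMM. The largest share lower was on chromosome 7 with library totals, 12.1%, and on chromosome 16 with TMM, 8.98%, where chromosome 7 had 8.36%. Rows on scaffolds not placed on a chromosome had 17.5% called. With TMM chromosome 19 had 20 higher and 21 lower. Positions follow the Populus trichocarpa naming, and the arrangement of the Populus cathayana genome was not used here.

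**Figure D4:**
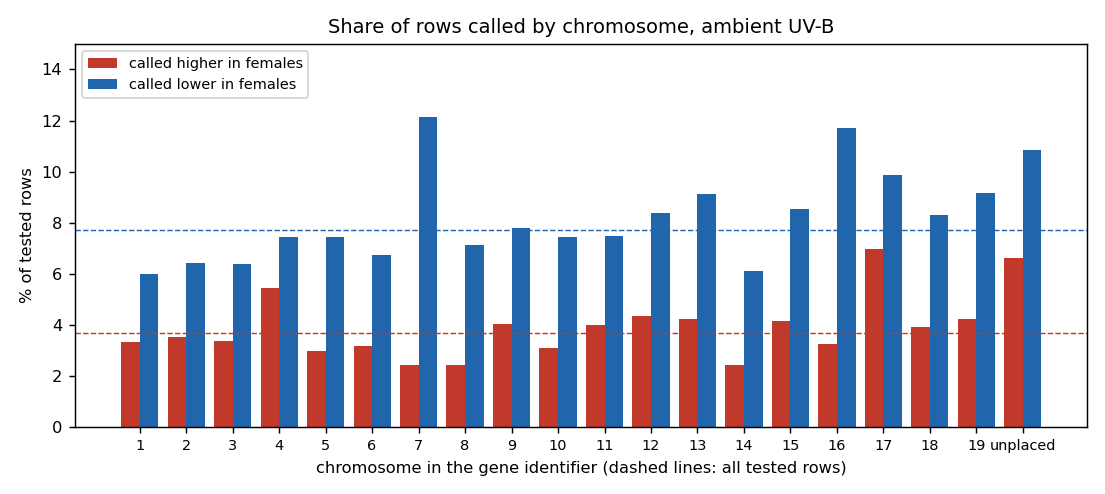
Bars give the percentage of tested rows called higher (red) and lower (blue) in females under ambient UV-B for each chromosome named in the gene identifiers and for unplaced scaffolds. Dashed lines are the shares over all tested rows, 3.66% and 7.69%. Chromosome 19 lies slightly above both lines, and chromosome 7 has the tallest blue bar, at 12.1%, a place that chromosome 16 takes with TMM.

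The sex difference was set beside that of plants under reduced UV-B, where 500 rows were higher in females (4.66%) and 634 lower (5.9%). The ambient and reduced comparisons share no library. Across 3478 rows with at least 100 counts, the female and male libraries under ambient UV-B had a Pearson r of 0.67 on the log2 scale, and those under reduced UV-B also 0.67. Libraries of the same sex were closer, at 0.87 for females and 0.88 for males. These are correlations across genes, which are not replicates. The ambient and reduced log2 ratios correlated with r of 0.69 and Spearman's rho of 0.62 over the same rows.

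Of the 393 rows higher in females under ambient UV-B, 182 were called higher under reduced UV-B, which is 46.3% of the ambient and 36.4% of the reduced list. Of the 826 lower rows, 347 were called lower, which is 42.0% of the ambient and 54.7% of the reduced list. Only 7 higher and 1 lower rows were called in the opposite direction. The called rows were chosen by their ambient ratios, so their smaller reduced ratios (medians 2.25 under ambient and 1.47 under reduced UV-B for higher rows, and -2.18 under ambient and -1.22 under reduced UV-B for lower rows) are a description.

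A direct test of the 4 counts asked where the female to male ratio under ambient UV-B differed from that under reduced UV-B. It called 111 rows with a higher ratio under ambient UV-B (1.03%) and 217 with a lower one (2.02%), again by adjusted p and a 2-fold minimum. With TMM every ratio of ratios was 0.20 higher. Among the rows already called in the ambient comparison, 45 of the higher (11.5%) and 102 of the lower ones (12.3%) had a sex difference called larger in the same direction under ambient UV-B. The test covers counting error only and does not separate the condition from the lane.

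GSTU20 had the largest ratio of ratios among the genes named here, 8.33 on the log2 scale (interval 6.51 to 10.69), and males held the higher count under reduced UV-B. The RNA-dependent RNA polymerase Potri.006G253500.1 had 3 counts in females and 85 in males under reduced UV-B and likewise changed sides (7.26, interval 5.07 to 9.79). EF1Bgamma2 had 71 counts in females and 48 in males under reduced UV-B, so that the male library under ambient UV-B was the one at 0. Of the 41 rows with plastid-encoded hits, 9 had a higher ratio under ambient UV-B and 0 a lower one. Ribosomal protein S3 was among them, at 2.12 (interval 1.85 to 2.39), and the Ycf1-like row at 2.71 (interval 1.87 to 3.61).

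The lowest ratio of ratios among the genes named here belonged to polyphenol oxidase Potri.011G108300.1, at -5.82 (interval -7.71 to -4.09). It had 29 counts in females and 13 in males under reduced UV-B, so that only the male library under ambient UV-B was high. P450 Potri.014G037900.1 followed at -5.06 (interval -6.70 to -3.79), then DNA-3-methyladenine glycosylase Potri.010G137300.1, a DNA repair enzyme, at -4.71 with 2 counts in females and 40 in males under ambient and 34 in females and 26 in males under reduced UV-B. The Kunitz inhibitor Potri.019G124400.2 stood at -3.99 (interval -4.71 to -3.30) and cellulose synthase Potri.002G257900.1 at -3.52 (interval -5.24 to -2.12). Chalcone synthase, phenylalanine ammonia-lyase, thaumatin and the glucanases were not called by this test, and their ambient and reduced ratios lay close, such as -1.77 and -1.97 for phenylalanine ammonia-lyase Potri.006G126800.1.

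**Figure D5:**
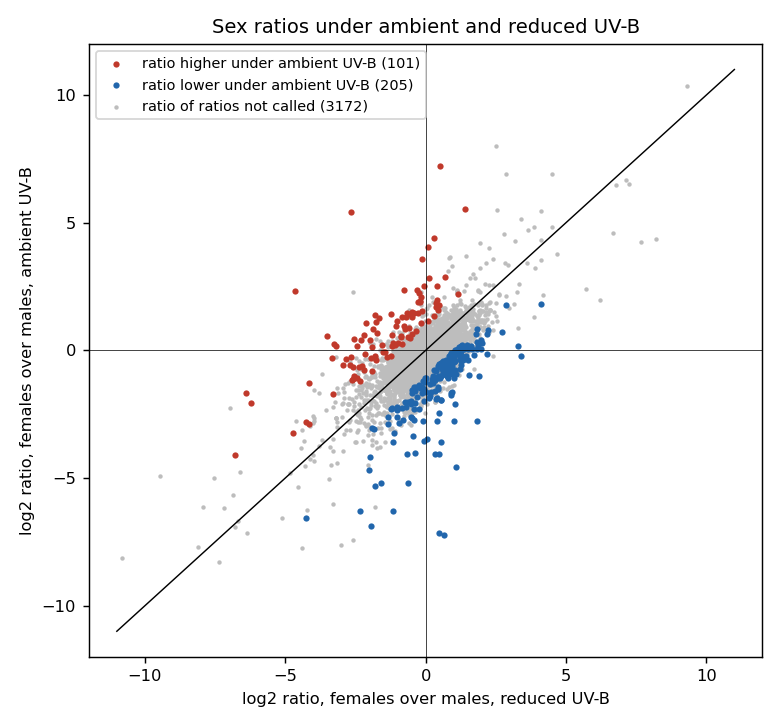
Each point is 1 of 3478 rows with at least 100 counts, with the log2 ratio of females over males under ambient UV-B on the vertical axis and under reduced UV-B on the horizontal axis (0.5 added to each count). Red and blue points have a ratio of ratios called higher and lower under ambient UV-B, and the line marks equal ratios. Most points lie along the line, and the coloured ones off it.

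Most called rows had no description. Among them, Potri.T020000.1 had 681 counts in females and 0 in males under ambient UV-B, and 328 in females and 0 in males under reduced UV-B. The reverse held for Potri.T084600.1, with 4 counts in females and 1231 in males under ambient UV-B, and 0 in females and 889 in males under reduced UV-B. These rows separated the sexes in all 4 libraries. The most abundant row of the table, Potri.005G190100.1, had 13116 counts in females and 38864 in males (-1.61, interval -1.64 to -1.58), which was 2.10% and 5.38% of the listed counts. Under reduced UV-B it had 30300 counts in females and 38016 in males and was not called.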

How the data were processed

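Leaf RNA of 4 pooled libraries (9 plants each, 1 library per group) was cut with NlaIII and MmeI to 17 bp tags, per the labels' protocols. Those protocols also mention 3 biological replicates of the extraction, but no replicate libraries are listed. The authors deposited raw tag counts per row, together with the total of every library, per the file headers. The values the authors deposited under the heading TPM are CPM without a length correction, since recomputing CPM from the counts gave 100% of them within 0.005. They were used for this check only. How tags were assigned to rows, the strand and mismatch settings, and the genome build are not stated in the labels or files used here. Therefore rows of near-identical paralogs are uncertain and no coordinates are printed. The table had 0 columns of other samples.

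Rows with at least 10 counts over the 4 libraries were tested. With 1 library per group a quasi-likelihood test of the pair cannot be fitted, so the pair was compared by an exact two-sided conditional binomial test given the header totals, with Benjamini-Hochberg adjustment over 10741 rows. The ratio of ratios used the exact conditional noncentral hypergeometric test of the 4 counts. Both were run on simulated counts with counting error only, which leaves their behaviour under variation between pools untested. The tests treat tags as independent although the tags were amplified by PCR. Intervals and the bounds against 3 counts cover counting error only. Scaling by TMM (edgeR 4.0.16), DESeq2 1.42.0 size factors and the sum of listed rows, other count minimums, an assumed coefficient of variation and a quasi-likelihood fit over the 4 libraries were alternatives. Tests ran in SciPy 1.17.1 and R 4.3.3.

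Groups of genes are word patterns on the best-hit descriptions, with 9.37% of described rows called lower and 4.71% higher. Genes were named by rule: a description, at least 50 counts in the higher library and a call under both scalings, taking the 10 largest and 10 smallest ratios, up to 2 called members per list and direction, the most abundant member of each list and of the table, and the 5 largest and 5 smallest ratios of ratios. This named 130 genes. Genes outside the rule (smaller defence, phenylpropanoid, glutathione transferase, transporter, AP2/ERF and receptor rows among them) and 6 lists (aromatic amino acids, amino acid and metal transporters, F-box proteins, GRAS factors, calcium signalling kinases) were chosen after their values were seen. The members and all lists were chosen with earlier results of these data known.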

Additional observations from a re-analysis of the deposited data

Results flagged for a closer look

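In the genes below the female to male ratio under ambient UV-B differed from that under reduced UV-B by the exact test of the 4 counts, adjusted over 10741 rows, where 1.03% and 2.02% of all tested rows were called higher and lower. Values are log2 ratios of ratios, ambient over reduced, and cover counting error of 4 libraries only. Lane and group cannot be told apart.

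Higher under ambient UV-B were several rows for which the male library under ambient UV-B was low. They include GSTU20 (Potri.008G175000.1, 8.33) and EF1Bgamma2 (Potri.004G226300.1, 4.10 as a bound against 3 counts). An undescribed row, Potri.002G196100.1, stood at 4.45 with 120 counts in females and 2 in males under ambient and 85 in females and 31 in males under reduced UV-B. Among rows with plastid-encoded hits in this direction were the Ycf1-like row Potri.011G073900.1 (2.71), ribosomal protein S3 Potri.012G047500.1 (2.12) and acetyl-CoA carboxylase beta subunit Potri.013G141100.1 (1.47). ATP synthase CF0 C chain Potri.005G154900.1 (1.14) and RNA polymerase beta subunit Potri.013G142200.1 (1.33) were others. XTH-6 (Potri.006G071200.1) had 1.92, the disease resistance gene Potri.012G074700.1 1.73, the ABC transporter Potri.003G034700.1 1.07 and the abundant undescribed row Potri.001G400200.1 1.60.

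In a few rows of the same direction the reduced pair was the more unequal one. The RNA-dependent RNA polymerase Potri.006G253500.1 had 7.26, with 38 counts in females and 7 in males under ambient and 3 in females and 85 in males under reduced UV-B. Kunitz-type inhibitor Potri.001G309900.1 had 5.07, with 2 counts in females and 207 in males under reduced UV-B. P450 Potri.001G270600.1 had 3.24 and P450 Potri.007G115500.1 2.91. NADH dehydrogenase subunit 6 Potri.004G195500.1, a row with a plastid-encoded hit, had 1.38 and was lower in females under ambient UV-B too.

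Lower under ambient UV-B were the defence genes polyphenol oxidase Potri.011G108300.1 (-5.82), Kunitz-type inhibitor Potri.019G124400.2 (-3.99), inhibitor KPI-C1 Potri.019G124600.1 (-1.12, not called with TMM) and pop3 Potri.010G150500.1 (-1.24). Metabolic genes in this direction were P450 Potri.014G037900.1 (-5.06), DAHP synthase Potri.002G099200.1 (-1.59), coniferylaldehyde 5-hydroxylase Potri.007G016400.1 (-1.30), glutathione reductase Potri.015G037800.1 (-1.39) and 2-cys peroxiredoxin Potri.016G072100.1 (-1.21). Wall genes were cellulose synthase Potri.002G257900.1 (-3.52) and pectinesterase Potri.014G149700.1 (-1.45). The rest were DNA-3-methyladenine glycosylase Potri.010G137300.1 (-4.71), a vesicle-associated protein Potri.013G031400.1 (-2.98), ribosomal protein S9 Potri.012G144700.1 (-2.58), ammonium transporter Potri.008G173800.1 (-1.06, not called with TMM) and the undescribed rows Potri.001G078100.1 (-2.33) and Potri.005G190100.1 (-1.24).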

How the results depend on the processing

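With 1 library per group no replicate can be left out. No paired analysis was possible because the labels number no replicates that the groups share. Scaling moved the balance of the ambient comparison most. Rows higher and lower in females numbered 551 and 624 with TMM, 554 and 623 with DESeq2 size factors, and 599 and 576 with the sum of the listed rows, beside 393 and 826 with library totals. The share of calls that were lower was 67.8% with library totals, 53.1%, 52.9% and 49.0% in that order. Assuming that pools vary with a coefficient of 0.3 left 46 higher and 77 lower rows, and 27 of the 99 called genes among the 130 named by rule. The quasi-likelihood fit of sex over the 4 libraries with UV-B as a block called 0 and 0, with 1534 rows at an unadjusted p under 0.05. It estimated a common coefficient of variation of 0.3391, which reflects how sex differences vary between UV-B levels and not variation between replicate pools. A looser adjusted p of 0.05 gave 868 higher and 1631 lower rows, and 935 ratios of ratios in place of 328. Without a count minimum 367 and 781 rows were called, and with at least 50 counts 337 and 743. For the ratio of ratios the other alternatives gave 274 to 354 calls. Of the 130 named genes, 7 lost and 3 gained a call with TMM, and the same numbers with size factors. Rows at 10 to 24 counts were rarely called, so that small differences in thinly counted genes were not detectable at this depth.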

Other observations

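Gene ontology terms attached to the rows by the authors gave a view that did not depend on the word patterns. To set beside them, 3.66% of all rows were higher and 7.69% lower, or 5.13% and 5.81% with TMM. Described rows had 4.71% and 9.37% with library totals. Of 196 terms with 20 to 500 tested rows, cell recognition had the largest share lower in females, 15 of 58 rows (25.9%, or 11 with TMM). In the same term 5 rows were higher (8.62%). Carbohydrate binding, a term of lectins and receptor kinases, had 18 of 98 rows lower (18.4%, 14 with TMM) and 4 higher, and response to carbohydrate stimulus 10 of 45 lower (22.2%, 10 with TMM) and 1 higher. Antioxidant activity, mostly peroxidases, had 9 of 46 lower (19.6%, 6 with TMM) and 3 higher (6.52%). On the other side, translation factor activity had 8 of 64 rows higher (12.5%) and 4 lower (6.25%). Monooxygenase activity had 5 of 34 higher (14.7%) and 1 lower (2.94%). Rows annotated to the chloroplast thylakoid were mixed, 11 higher and 17 lower of 181, or 16 and 9 with TMM. The shares with library totals were 6.08% and 9.39%, near those of described rows. Response to radiation had 0 of 48 rows higher and 3 lower, beside 3.66% and 7.69% of all rows. Defense response had 4 of 118 higher and 12 lower (3.39% and 10.2%), or 6 and 7 with TMM. Response to other organism had 3 of 78 higher and 6 lower (3.85% and 7.69%). Response to biotic stimulus had 1 of 25 higher and 2 lower (4% and 8%). Terms share rows, and these counts are a description.

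Histone H4-like row Potri.007G012500.1, named after its values were seen, had 29 counts in females under ambient UV-B and 0 in each of the other 3 libraries, and AP2/ERF row Potri.006G138700.1 had 24 counts in males under ambient UV-B and 0 in the others.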
